A study of Homo sapiens with 6 samples.

Results

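The genes described here are 52 established targets of the transcription factor p53 that act in growth arrest, DNA repair, metabolism and signalling, outside the core feedback loop (CDKN1A, MDM2 and their partners) and the death genes. They were chosen by name, and each of the 52 was matched to a row among the 59715 genes of the deposited count table. The RNA was from the human colon cancer cell line HCT116, which keeps functional p53, in 3 libraries of MLL4 knockout cells (MLL4KO) and 3 libraries of wild-type cells (MLL4WT). Both lines were grown in the same serum-supplemented medium, and the labels name no p53-activating treatment. They also do not say whether MLL4KO is 1 clone, or whether replicate libraries stem from different cultures, so p-values measure the spread between these libraries, which may be technical.

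p53 is held low in unstressed cells by MDM2-driven degradation and accumulates after DNA damage and other stress. It then binds response elements, each a pair of similar half-sites, near its target genes and raises their transcription. MLL4 is a histone methyltransferase that places methyl groups on lysine 4 of histone H3, chiefly at enhancers. The series set out to relate this mark to p53-dependent transcription, and these libraries ask how transcript levels differ once MLL4 is removed from cells with no named stress.

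The p53 consensus half-site was searched on both strands, from 250 bases before to 50 bases after the RefSeq start (GRCh38.p14), in the 39 members with an entry. Paired half-sites, with the core C and G of each intact, at most 2 mismatches in all and a spacer of 0 to 13 bases, were found in 5 of the 39 (12.8%), against 989 of 27305 promoters (3.62%). These 5 are shown with the half-sites in capitals and the spacer in lower case, because they include a gene that rose, 3 that fell and 1 that was not called. Each is the pair with the fewest mismatches in its window.
DDB2: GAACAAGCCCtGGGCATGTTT
PANK1: GGGCATGCTCagtggcggGGACCAGTCT
SLC12A4: GGGCTTGCCCcacctccCGGCATGCCC
FDXR: GGGCGGGCCCgggcaggagcGGGCTTGCCC
SYTL1: TAACTTGCTTtcaAAGCGAGTTC
The DDB2 pair (plus strand, chr11:47214979-47214999) has 0 mismatches and begins 5 bases past the start. The PANK1 pair (minus strand, chr10:89645238-89645265) and the SLC12A4 pair (minus strand, chr16:67964095-67964121) have 1 mismatch each. The FDXR pair (minus strand, chr17:74872996-74873025) and the SYTL1 pair (plus strand, chr1:27341818-27341840) have 2 each. A match describes the letters only, and p53 sites outside this window were not searched.

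The levels given are in CPM, estimated counts set relative to the library total, scaled between libraries by the TMM method and not divided by gene length, so they compare libraries within a gene and not genes with each other. Library totals were 14775580 to 19736751 counts in MLL4KO and 6829400 to 17828774 in MLL4WT, whose replicate 1 was the shallowest. In that library 3 counts amount to 0.446 CPM. KMT2D, the human gene for which MLL4 is a common name, was at 230, 243 and 225 CPM in MLL4KO libraries and 240, 231 and 234 CPM in MLL4WT libraries (log2 -0.01 ± 0.05, edgeR adjusted p = 0.832). KMT2B, which has also been called MLL4, was at 67.1, 61.9 and 60.6 CPM in MLL4KO and 94.1, 90.3 and 87.2 CPM in MLL4WT (edgeR adjusted p = 2.33e-05). A count over a whole gene need not show a small deletion, so these values do not check the labels. The 9 colon epithelial markers summed to 1082 to 1105 CPM in MLL4KO libraries and 1607 to 1670 CPM in MLL4WT libraries, and CDX1 was at 0 in every library. The difference lay in KRT8, KRT18, EPCAM and KRT19, whereas the groups overlapped for CDX2 (28.3, 31.5 and 31.8 CPM in MLL4KO, 30.8, 29.2 and 26.3 CPM in MLL4WT) and for CDH1 (10.99, 12.1 and 10.7 CPM in MLL4KO, 10.3, 10.4 and 11.9 CPM in MLL4WT). VIL1 was near 0, at 0 to 0.448 CPM in MLL4KO and 0.402 to 1.19 CPM in MLL4WT. LGALS4 was also near 0, at 0.0616 to 0.249 CPM in MLL4KO and 0 to 0.206 CPM in MLL4WT. Fibroblast markers summed to 31.6 to 35.6 CPM in MLL4KO and 30.0 to 32.3 CPM in MLL4WT, but these sums hide opposite differences. COL1A1 was at 25.1 to 28.7 CPM in MLL4KO and 21.8 to 23.1 CPM in MLL4WT. PDGFRB was at 4.25 to 4.78 CPM in MLL4KO and 1.78 to 3.33 CPM in MLL4WT. COL3A1 was lower in MLL4KO, at 0.398 to 1.13 CPM, than in MLL4WT, at 4.94 to 5.51 CPM. The groups overlapped for COL1A2, DCN, LUM and PDGFRA. Endothelial markers (3.08 to 3.94 CPM in MLL4KO, 1.90 to 2.19 CPM in MLL4WT) and leukocyte markers (1.04 to 2.10 CPM in MLL4KO, 0.743 to 1.30 CPM in MLL4WT) were near 0, and NKG7 was at 0 in every library. In bulk RNA, fewer cells that express a gene and less of its RNA per cell cannot be told apart, and the part of the lower epithelial sum in the results that follow was not tested.

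The p53 targets did not move as a block in MLL4KO cells. KITLG, DRAM1, PANK1 and CYFIP2 rose, while PLK3, GADD45A, LIF, GDF15, TRAF4 and SYTL1 fell, and 26 of the 48 tested members showed no called change. The other 4 of the 52 members had too few counts to be tested. A gene is said to have risen or fallen where the edgeR quasi-likelihood test gave a p under 0.05 after Benjamini-Hochberg adjustment across the 14543 tested genes. By this rule 9 members rose and 13 fell, 22 of 48 (45.8%), where 41.4% of all tested genes were called. Rises made up 18.8% of the tested members, against 19.8% of all tested genes, and falls 27.1%, against 21.6%. The median log2 fold change was -0.06 over the members and -0.0044 over all tested genes. The share called among these p53 targets was thus near that of the transcriptome at large. TLR3 and ENC1 reached the filter's 0.648 CPM only in the group where they are high, and without these 2 genes 8 rose and 12 fell of 46 tested (43.5%). The counts per role group that follow are of few genes each and were not tested against each other.

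Changes of 1.5-fold or more were called for 9 of the 48 tested members, where 11.9% of all tested genes passed both marks. Of the 9, 3 rose and 6 fell, and TLR3 and ENC1, which reached the filter through 1 group alone, are among them. In CPM the libraries of the groups did not overlap for 28 of the 48 (58.3%), against 52.5% of all tested genes. These 28 include all 22 called members, TLR3 and ENC1 among them. Which direction was the more frequent changed with the scaling of libraries: by total counts alone, or by upper quartile factors, 13 members rose and 10 fell. Over all 14543 tested genes, 3706 rose and 2394 fell by total counts alone, and 3561 and 2475 by upper quartile factors. Total counts alone moved the median of all tested genes to 0.06 in log2. Without MLL4WT replicate 1, the shallowest library, 10 members rose and 14 fell, beside 3521 and 3822 of 14843 tested genes. Of the 26 tested members that were not called, 22 had a log2 fold change smaller than 0.25 in size.

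**Figure D1:**
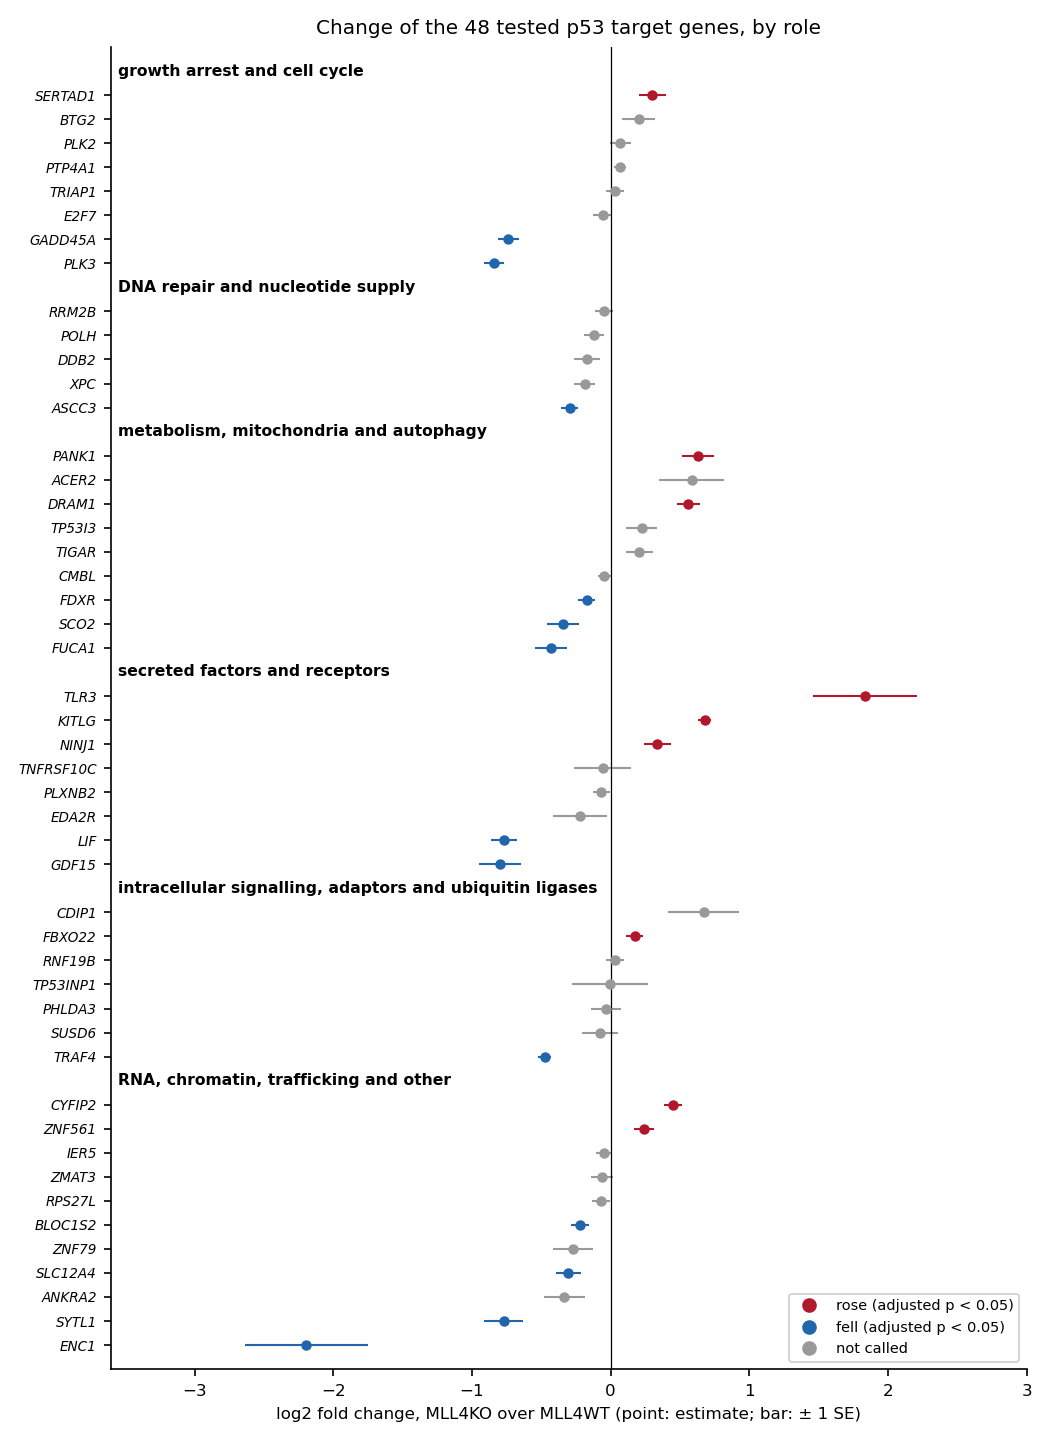
Log2 fold change of the 48 tested members (MLL4KO over MLL4WT, horizontal axis, with 1 standard error) by role, coloured by call. Called changes go both ways in 5 of the 6 role groups, and ENC1 and TLR3, the members with the widest error bars, lie farthest from 0.

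Among genes of growth arrest and the cell cycle, the stress kinase gene PLK3 and the growth arrest gene GADD45A fell and SERTAD1 rose. These are 3 of 8 tested (37.5%), beside the 41.4% of all tested genes that were called. PLK3, which encodes a polo-like kinase induced by genotoxic stress (chromosome 1, 44800225 to 44805990 on GRCh38 in GENCODE release 29, like the gene coordinates that follow), was at 15.3, 15.2 and 15.4 CPM in MLL4KO libraries, against 28.1, 27.8 and 26.7 CPM in MLL4WT libraries. The MLL4KO libraries lay within a narrow band well under every MLL4WT library, and the difference was 1.79-fold (log2 -0.84 ± 0.07 SE, n = 3 each, edgeR adjusted p = 2.62e-06). PLK2, a related kinase gene, was at 59.9 ± 2.24 CPM in MLL4KO and 56.4 ± 6.58 CPM in MLL4WT (SD, n = 3 each), and its groups overlapped (log2 0.07 ± 0.07, edgeR adjusted p = 0.486). Whether the responses of PLK3 and PLK2 differ from each other was not tested.

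GADD45A, whose product binds cyclin-dependent kinase and repair proteins after DNA damage, had 27.1, 27.6 and 28.6 CPM in MLL4KO libraries and 41.5, 50.1 and 45.8 CPM in MLL4WT libraries. The groups did not overlap, and the fall was 1.67-fold (log2 -0.74 ± 0.08, edgeR adjusted p = 1.24e-05). SERTAD1, a regulator of cyclin D-CDK4 and E2F activity, had 19.5, 19.2 and 17.2 CPM in MLL4KO libraries and 16.8, 15.9 and 13.5 CPM in MLL4WT libraries. The lowest MLL4KO library stood only just above the highest MLL4WT library (log2 0.30 ± 0.10, edgeR adjusted p = 0.0285). The call was lost without MLL4KO replicate 1 or 2, without MLL4WT replicate 3, in DESeq2 and after thinning to the shallowest library (log2 0.21 to 0.30, adjusted p 0.0995 to 0.154).

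PTP4A1, a prenylated tyrosine phosphatase gene with the most counts of this group, had 290, 298 and 306 CPM in MLL4KO libraries and 292, 286 and 278 CPM in MLL4WT libraries. The groups overlapped (log2 0.06 ± 0.04, edgeR adjusted p = 0.260), although 4 alternatives called a rise of log2 0.07 to 0.13. With GC and length trends removed the value was below 0, at log2 -0.05, and not called. The antiproliferative gene BTG2, the apoptosis-restraining mitochondrial gene TRIAP1 and E2F7, which encodes a repressor of E2F targets, were not called either, with log2 fold changes of 0.20, 0.03 and -0.06. PRDM1, a transcriptional repressor gene, had 6, 3 and 6 counts in MLL4KO libraries and 0, 7 and 4 in MLL4WT libraries, too few to be tested.

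**Figure D2:**
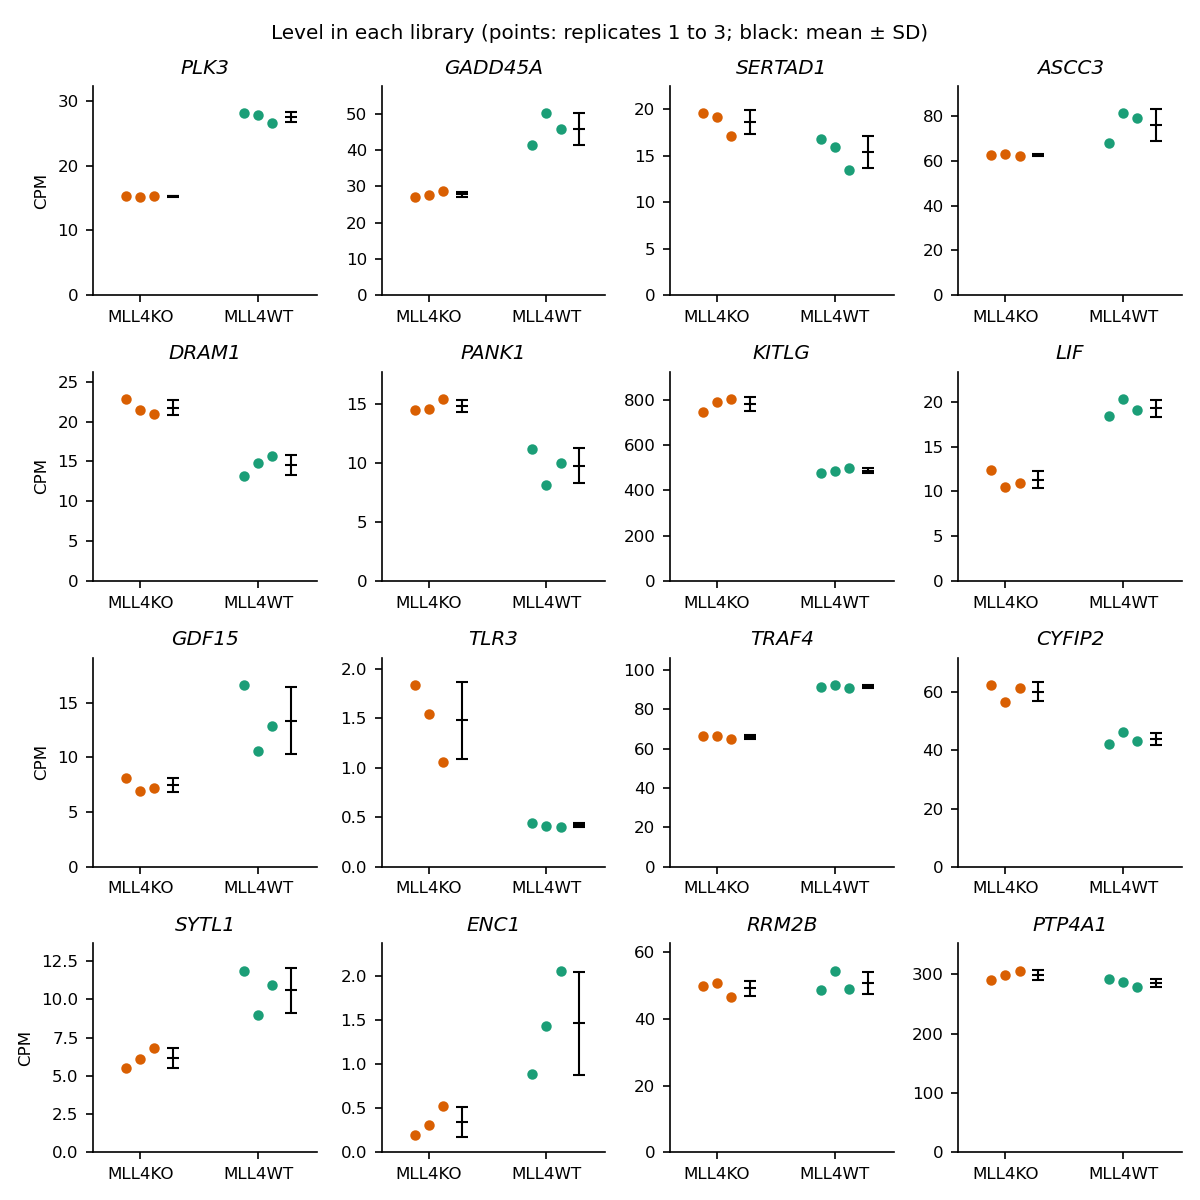
Level of 16 members in each library in CPM (vertical axes start at 0), MLL4KO left and MLL4WT right, with the mean and SD in black. The groups are apart for the first 14 genes, from PLK3 to ENC1, while those of RRM2B and PTP4A1 overlap.

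The DNA repair genes all had log2 fold changes below 0, but only the change of ASCC3 passed the test among the 5, all of which were tested. ASCC3, the helicase gene of the alkylation repair and ribosome quality control complex ASCC (chromosome 6, 100508194 to 100881372), had 62.6, 63.3 and 62.2 CPM in MLL4KO libraries, against 67.9, 81.3 and 79.2 CPM in MLL4WT libraries. It fell 1.23-fold (log2 -0.30 ± 0.06, edgeR adjusted p = 0.00285). The lowest MLL4WT value was that of replicate 1, and the MLL4KO libraries agreed within about 1 CPM.

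XPC, which encodes the damage sensor of nucleotide excision repair, was at 39.2, 36.4 and 37.4 CPM in MLL4KO libraries and 37.0, 44.6 and 45.2 CPM in MLL4WT libraries. MLL4WT replicate 1 fell among the MLL4KO libraries, and the difference missed the threshold (log2 -0.19 ± 0.08, edgeR adjusted p = 0.0722). It passed without that library and with a flow cell term (log2 -0.24 in both, adjusted p = 0.00126 and 0.00111). These settings are not independent, since that library is alone on its flow cell code and the term absorbs it. DDB2, whose product recognises ultraviolet damage in chromatin and whose promoter window holds the mismatch-free p53 pair, was at 15.4, 15.1 and 16.0 CPM in MLL4KO libraries and 20.1, 16.1 and 17.1 CPM in MLL4WT libraries. Its groups were apart by a small margin, and it was not called (log2 -0.17 ± 0.09, edgeR adjusted p = 0.165). POLH, the gene of the lesion-bypassing DNA polymerase eta, did not pass either (log2 -0.12 ± 0.07, edgeR adjusted p = 0.224).

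RRM2B encodes the p53-inducible small subunit of ribonucleotide reductase, which supplies deoxynucleotides for repair. It was at 49.9, 50.9 and 46.7 CPM in MLL4KO libraries and 48.6, 54.5 and 49.1 CPM in MLL4WT libraries, with overlapping groups (log2 -0.05 ± 0.06, edgeR adjusted p = 0.577). RRM2B lies on chromosome 8 (102204502 to 102239118). Of its 40 nearest tested neighbours, 20 on each side, 28 fell and 3 rose, with a median log2 fold change of -0.51, and 6 of the 40 had a higher log2 fold change than RRM2B.

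The other member of this stretch, TP53INP1 (chromosome 8, 94925972 to 94949411), encodes a nuclear and autophagy protein that promotes the p53 response. It was near the detection limit at 1.49, 1.54 and 1.86 CPM in MLL4KO libraries and 1.93, 1.58 and 1.49 CPM in MLL4WT libraries (log2 -0.0021 ± 0.27, edgeR adjusted p = 0.996). The error of that value is wide enough to hold sizeable changes in both directions. Of its 40 neighbours, 29 fell and 0 rose, at a median log2 fold change of -0.47, and 10 neighbours are shared with RRM2B. The neighbours of the other 46 tested members had medians between -0.20 and 0.23. Whether RRM2B and TP53INP1 differ from their neighbours was not tested.

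**Figure D3:**
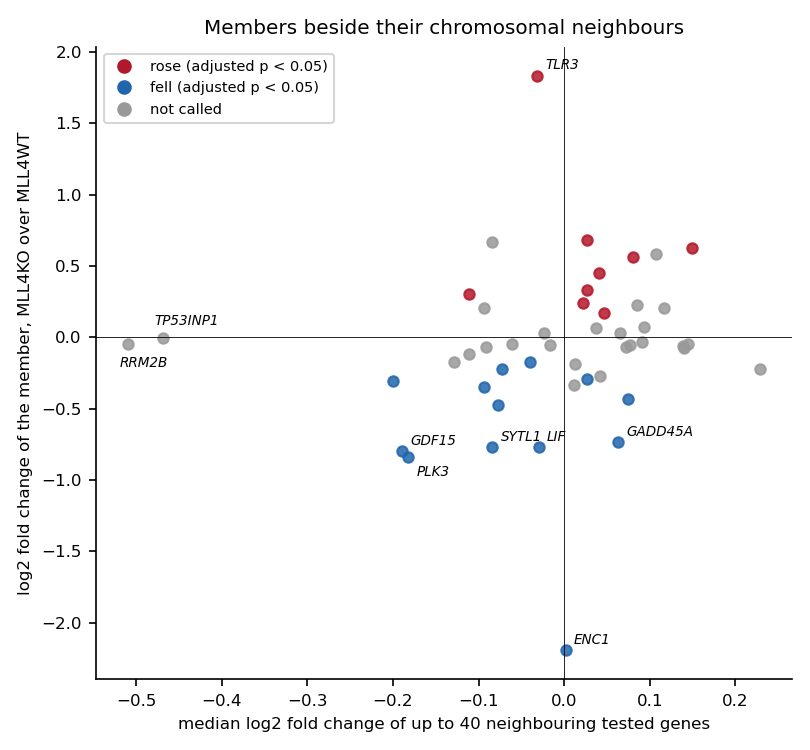
Log2 fold change of each of the 48 tested members (vertical axis) against the median log2 fold change of up to 40 neighbouring tested genes on the same chromosome (horizontal axis). RRM2B and TP53INP1 lie at the far left, with neighbours at -0.51 and -0.47, yet close to 0 on the vertical axis.

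Metabolic, mitochondrial and autophagy genes were called in 5 of 9 tested members, 2 up and 3 down, where 41.4% of all tested genes were called. This split turned to 4 up and 1 down by total counts, by upper quartile factors or with GC and length trends removed. The falls numbered 0 without MLL4KO replicate 2, 1 without MLL4KO replicate 3 and 1 after thinning to the shallowest library. DRAM1, a lysosomal membrane protein gene that links p53 to autophagy (chromosome 12, 101877351 to 102012130), had 22.8, 21.5 and 20.9 CPM in MLL4KO libraries, against 13.2, 14.8 and 15.6 CPM in MLL4WT libraries. The groups were well apart, and the rise was 1.47-fold (log2 0.56 ± 0.08, edgeR adjusted p = 0.000241). PANK1, a pantothenate kinase gene of coenzyme A synthesis (chromosome 10, 89579497 to 89645572), had 14.5, 14.6 and 15.4 CPM in MLL4KO libraries and 11.1, 8.16 and 9.99 CPM in MLL4WT libraries. It rose 1.55-fold with no overlap (log2 0.63 ± 0.12, edgeR adjusted p = 0.00102). A processed pseudogene on the same strand shares 621 exon bases with PANK1 and held 252 counts over the 6 libraries, against 1128 for PANK1.

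FUCA1, the lysosomal alpha-L-fucosidase gene, had 10.0, 8.63 and 9.04 CPM in MLL4KO libraries and 13.8, 12.7 and 11.4 CPM in MLL4WT libraries. It fell 1.35-fold (log2 -0.43 ± 0.12, edgeR adjusted p = 0.0104), a call lost without MLL4KO replicate 2 (log2 -0.38, adjusted p = 0.0538). SCO2, a copper chaperone gene for cytochrome c oxidase assembly, had 29.6, 35.0 and 33.2 CPM in MLL4KO libraries and 51.3, 38.2 and 37.6 CPM in MLL4WT libraries. MLL4WT replicate 1 was well above the others, and the remaining MLL4WT libraries stood only just above the highest MLL4KO library. The log2 fold change was -0.35 ± 0.11 (edgeR adjusted p = 0.0338), and -0.22, still called, without MLL4WT replicate 1. The SCO2 call was lost in 8 of 17 alternatives, among them those without any 1 of the MLL4KO libraries and the removal of GC and length trends (log2 -0.40 to -0.14, the last with these trends removed, adjusted p 0.0533 to 0.166). An antisense gene of 374 counts shares 499 of its 1022 exon bases, and reads from the 2 strands cannot be told apart where the library keeps no strand.

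FDXR, the ferredoxin reductase gene of mitochondrial electron transfer, had 54.7, 47.1 and 51.3 CPM in MLL4KO libraries and 58.2, 56.7 and 58.1 CPM in MLL4WT libraries. Its fall was small (log2 -0.17 ± 0.06, edgeR adjusted p = 0.0467). It was lost in 12 of 17 alternatives, including those without MLL4KO replicate 2 or 3 or MLL4WT replicate 2 or 3 (log2 -0.18 to -0.05 over the 12, adjusted p 0.0527 to 0.532). Without MLL4KO replicate 2 it was -0.11. CMBL, a hydrolase gene and the uncalled member of this group with the most counts, was at 81.5 ± 2.58 CPM in MLL4KO and 84.0 ± 1.82 CPM in MLL4WT.

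A further 3 genes of this group had log2 fold changes above 0 without a call. The ceramidase gene ACER2 had 3.83, 2.59 and 3.99 CPM in MLL4KO libraries and 1.78, 2.47 and 2.47 CPM in MLL4WT libraries (log2 0.59 ± 0.23, edgeR adjusted p = 0.0642). The groups were apart by a narrow margin at this low level, and 4 alternatives called it (log2 0.64 to 0.77), while the range over all alternatives that gave a value was log2 0.49 to 0.77. TIGAR, a fructose bisphosphatase gene that lowers glycolytic flux, and TP53I3, a quinone oxidoreductase gene, had log2 fold changes of 0.21 ± 0.10 and 0.22 ± 0.11 (edgeR adjusted p = 0.112 and 0.123). SPATA18, a mitochondrial quality control gene, had 1 count in all 6 libraries together and was not tested.

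Of the secreted factors and receptors, 3 rose and 2 fell of 8 tested, beside the 41.4% of all tested genes that were called. After thinning to the shallowest library, 1 rose and 2 fell. KITLG, the ligand of the receptor tyrosine kinase KIT (chromosome 12, 88492793 to 88580851), had 745, 792 and 803 CPM in MLL4KO libraries, against 477, 486 and 497 CPM in MLL4WT libraries. Every MLL4KO library was far above every MLL4WT library, and the rise of 1.60-fold had the smallest adjusted p of the members (log2 0.68 ± 0.05, edgeR adjusted p = 4.42e-07). LIF, a cytokine of the interleukin 6 family (chromosome 22, 30240447 to 30246851), had 12.4, 10.5 and 10.97 CPM in MLL4KO libraries and 18.4, 20.3 and 19.1 CPM in MLL4WT libraries. It fell 1.70-fold with a wide gap between the groups (log2 -0.77 ± 0.10, edgeR adjusted p = 5.68e-05).

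GDF15, a stress-induced cytokine of the TGF-beta superfamily and a common p53 readout (chromosome 19, 18374731 to 18389176), had 8.16, 6.96 and 7.18 CPM in MLL4KO libraries. It had 16.6, 10.6 and 12.9 CPM in MLL4WT libraries, which spread more widely, with replicate 1 the highest. The groups did not overlap, and the fall was 1.74-fold (log2 -0.80 ± 0.15, edgeR adjusted p = 0.00141).

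TLR3, the endosomal receptor for double-stranded RNA (chromosome 4, 186069152 to 186088069), had 37, 25 and 16 counts in MLL4KO libraries and 3, 6 and 7 counts in MLL4WT libraries. That is 1.84, 1.54 and 1.06 CPM in MLL4KO and 0.446, 0.412 and 0.402 CPM in MLL4WT. The 3.56-fold rise (log2 1.83 ± 0.37, edgeR adjusted p = 0.00202) thus rests on few counts. TLR3 passed the filter on low counts through its MLL4KO libraries alone, so a difference was built into its entry to the test, and it did not pass the stricter filter, nor the filter after thinning to the shallowest library. NINJ1, a cell surface protein gene of membrane rupture and adhesion, had 21.2, 20.6 and 22.9 CPM in MLL4KO libraries and 20.1, 15.1 and 17.2 CPM in MLL4WT libraries. MLL4WT replicate 1 came close to the lowest MLL4KO library (log2 0.33 ± 0.10, edgeR adjusted p = 0.0155). The NINJ1 call was lost without MLL4KO replicate 3, without MLL4WT replicate 2, in DESeq2 and after thinning (log2 0.24 to 0.33, adjusted p 0.0689 to 0.132).

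PLXNB2, a semaphorin receptor gene, had 182, 169 and 167 CPM in MLL4KO libraries and 198, 170 and 177 CPM in MLL4WT libraries, with overlapping groups (log2 -0.07 ± 0.06, edgeR adjusted p = 0.399). The ectodysplasin receptor gene EDA2R and the decoy receptor gene TNFRSF10C were near 3 CPM in both groups (log2 -0.22 ± 0.20 and -0.06 ± 0.20). TNFRSF10C has closely related neighbours among the TRAIL receptor genes, so its counts depend on how the authors' estimation shared reads. IGFBP3, which encodes a binding protein of insulin-like growth factors, had 1, 2 and 6 counts in MLL4KO libraries and 0, 2 and 1 in MLL4WT libraries and was not tested.

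Of 7 tested genes of intracellular signalling, adaptors and ubiquitin ligases, 1 rose and 1 fell, where 41.4% of all tested genes were called. TRAF4, an adaptor gene of the TNF receptor-associated factor family (chromosome 17, 28743984 to 28750958), had 66.6, 66.5 and 64.9 CPM in MLL4KO libraries, against 91.5, 92.5 and 91.1 CPM in MLL4WT libraries. Both groups were tight, and the fall was 1.39-fold (log2 -0.47 ± 0.05, edgeR adjusted p = 1.01e-05). FBXO22, a substrate receptor gene of an SCF ubiquitin ligase, had 56.9, 60.1 and 63.4 CPM in MLL4KO libraries and 49.5, 54.7 and 54.5 CPM in MLL4WT libraries (log2 0.17 ± 0.06, edgeR adjusted p = 0.0429). That call was lost in 9 of 17 alternatives, including those without MLL4KO replicate 2 or 3 or MLL4WT replicate 2 or 3. Over the 9 the log2 fold change ran between 0.03, with GC and length trends removed, and 0.20 (adjusted p 0.0504 to 0.713).

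RNF19B, a RING-between-RING ubiquitin ligase gene, had 45.3, 42.8 and 46.7 CPM in MLL4KO libraries and 47.1, 43.6 and 42.4 CPM in MLL4WT libraries, which overlapped (log2 0.03 ± 0.06, edgeR adjusted p = 0.744). CDIP1, a p53-inducible gene that promotes TNF-alpha-dependent death, had 2.79, 2.65 and 2.13 CPM in MLL4KO libraries and 1.04, 1.65 and 1.84 CPM in MLL4WT libraries. The groups did not overlap, and it just missed the threshold (log2 0.67 ± 0.26, edgeR adjusted p = 0.0551), which it passed in 3 alternatives (log2 0.73 to 0.75). Over all alternatives its log2 fold change ran between 0.15, after thinning to the shallowest library, and 0.84. PHLDA3, a pleckstrin homology gene that restrains AKT, and SUSD6 had log2 fold changes of -0.03 ± 0.11 and -0.08 ± 0.13. TRIM22 had 6 counts over the 6 libraries and was not tested.

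The remaining 11 members, which act in RNA binding, trafficking and other roles, were all tested. Of these 11, 2 rose and 4 fell (54.5%), where 41.4% of all tested genes were called. CYFIP2, a subunit gene of the actin-regulating WAVE complex (chromosome 5, 157266079 to 157395595), had 62.6, 56.6 and 61.4 CPM in MLL4KO libraries, against 42.2, 46.3 and 43.3 CPM in MLL4WT libraries. It rose 1.37-fold with no overlap (log2 0.45 ± 0.06, edgeR adjusted p = 0.000137). ZNF561, a zinc finger gene, had 39.2, 37.7 and 40.5 CPM in MLL4KO libraries and 30.8, 35.0 and 32.7 CPM in MLL4WT libraries (log2 0.24 ± 0.07, edgeR adjusted p = 0.0145). Without MLL4KO replicate 3 the ZNF561 call was lost (log2 0.22, adjusted p = 0.0545).

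SYTL1, a Rab27-binding gene of vesicle trafficking (chromosome 1, 27342020 to 27353937), had 5.52, 6.10 and 6.85 CPM in MLL4KO libraries and 11.9, 8.99 and 10.9 CPM in MLL4WT libraries. It fell 1.71-fold with no overlap (log2 -0.77 ± 0.14, edgeR adjusted p = 0.000921). ENC1, an actin-associated kelch-repeat gene on chromosome 5 (74627406 to 74641424), had 4, 5 and 8 counts in MLL4KO libraries and 6, 21 and 36 counts in MLL4WT libraries. The levels were 0.199, 0.308 and 0.532 CPM in MLL4KO and 0.892, 1.44 and 2.07 CPM in MLL4WT, which spread widely but did not overlap. Its 4.58-fold fall (log2 -2.19 ± 0.44, edgeR adjusted p = 0.00186) rests on 80 counts in all, and ENC1 passed the filter on low counts through its MLL4WT libraries alone.

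SLC12A4, a potassium-chloride cotransporter gene, had 34.6, 29.02 and 26.9 CPM in MLL4KO libraries and 37.1, 37.5 and 37.7 CPM in MLL4WT libraries. The MLL4KO libraries spread widely under a tight MLL4WT group (log2 -0.30 ± 0.09, edgeR adjusted p = 0.0157), and the call was lost without MLL4KO replicate 2 or 3 or MLL4WT replicate 2 or 3 (log2 -0.30 to -0.22, adjusted p 0.0528 to 0.0828). BLOC1S2, of the lysosome-related organelle complex BLOC-1, fell by 0.22 on the log2 scale (edgeR adjusted p = 0.0162). That call was lost in 7 of 17 alternatives, including those without any 1 of the MLL4KO libraries or without MLL4WT replicate 3 (log2 -0.22 to -0.14, the last without MLL4WT replicate 3, adjusted p 0.0551 to 0.127).

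IER5, an immediate early response gene, had 51.3, 53.9 and 49.2 CPM in MLL4KO libraries and 54.5, 53.6 and 52.0 CPM in MLL4WT libraries (log2 -0.05 ± 0.06, edgeR adjusted p = 0.539). ZMAT3, an RNA-binding splicing regulator gene, was at 21.6 ± 1.08 CPM in MLL4KO and 22.4 ± 1.49 CPM in MLL4WT. RPS27L, a ribosomal protein paralog gene, was at 31.0 ± 0.970 CPM in MLL4KO and 32.5 ± 0.729 CPM in MLL4WT. None of these 3 passed the test, and neither did ANKRA2 (log2 -0.33 ± 0.15, edgeR adjusted p = 0.0872) or the zinc finger gene ZNF79 (log2 -0.27 ± 0.14, edgeR adjusted p = 0.149).

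Column names carry a code of the kind given to flow cells, and MLL4WT replicate 1 is alone on its code. The flow cell term thus takes that library out of the genotype comparison, much as leaving it out does. Within the code shared by MLL4KO replicate 1 and MLL4WT replicate 3, and within that shared by MLL4KO replicates 2 and 3 and MLL4WT replicate 2, a member whose groups do not overlap has the same sign by construction, so the sizes alone are given. For KITLG the log2 difference was 0.58 within the first code and 0.71 within the second, for PLK3 -0.80 and -0.86, and for GADD45A -0.76 and -0.83. For other large changes the values lay farther apart, with SYTL1 at -0.98 and -0.47 and PANK1 at 0.53 and 0.88. Among smaller changes FDXR was at -0.09 and -0.21, SERTAD1 at 0.53 and 0.19 and ASCC3 at -0.34 and -0.37. Each of these differences has 1 library on at least 1 side and no test.

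**Figure D4:**
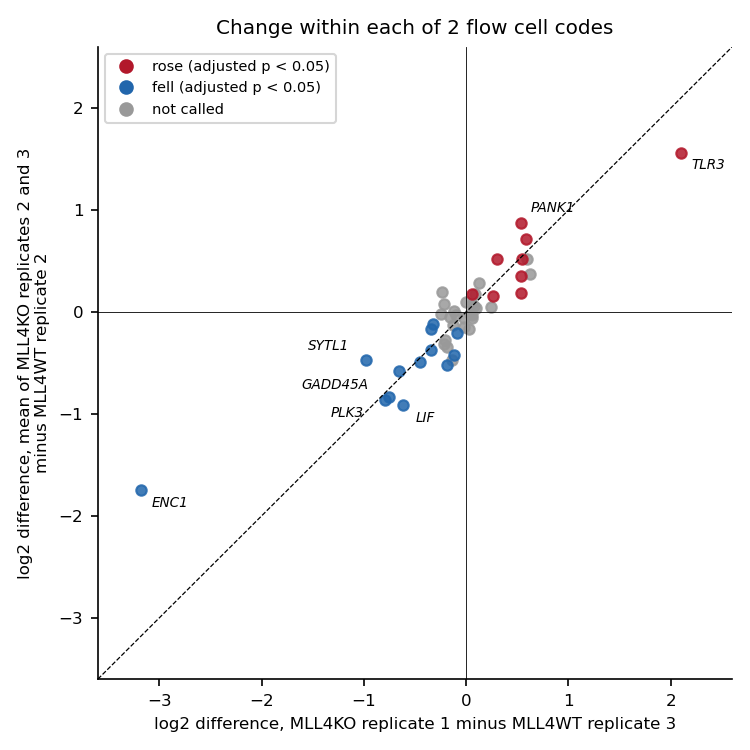
Log2 difference of the 48 tested members between MLL4KO and MLL4WT libraries within the first code (horizontal axis) and within the second (vertical axis), with a dashed line where both are equal. KITLG has 0.58 and 0.71 and lies nearer the line than SERTAD1 with 0.53 and 0.19, and the signs of the called members are fixed by their groups not overlapping.

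Of the 22 called members, 13 stayed called in the same direction in every one of the 17 alternatives that gave them a value, 5 that rose and 8 that fell. The 5 were KITLG, DRAM1, PANK1, CYFIP2 and TLR3. The 8 were PLK3, GADD45A, TRAF4, LIF, GDF15, SYTL1, ENC1 and ASCC3. TLR3 and ENC1 gave no value in 2 of the 17. Both passed the filter on low counts through 1 group alone, so their place among the 13 was partly built in.

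**Figure D5:**
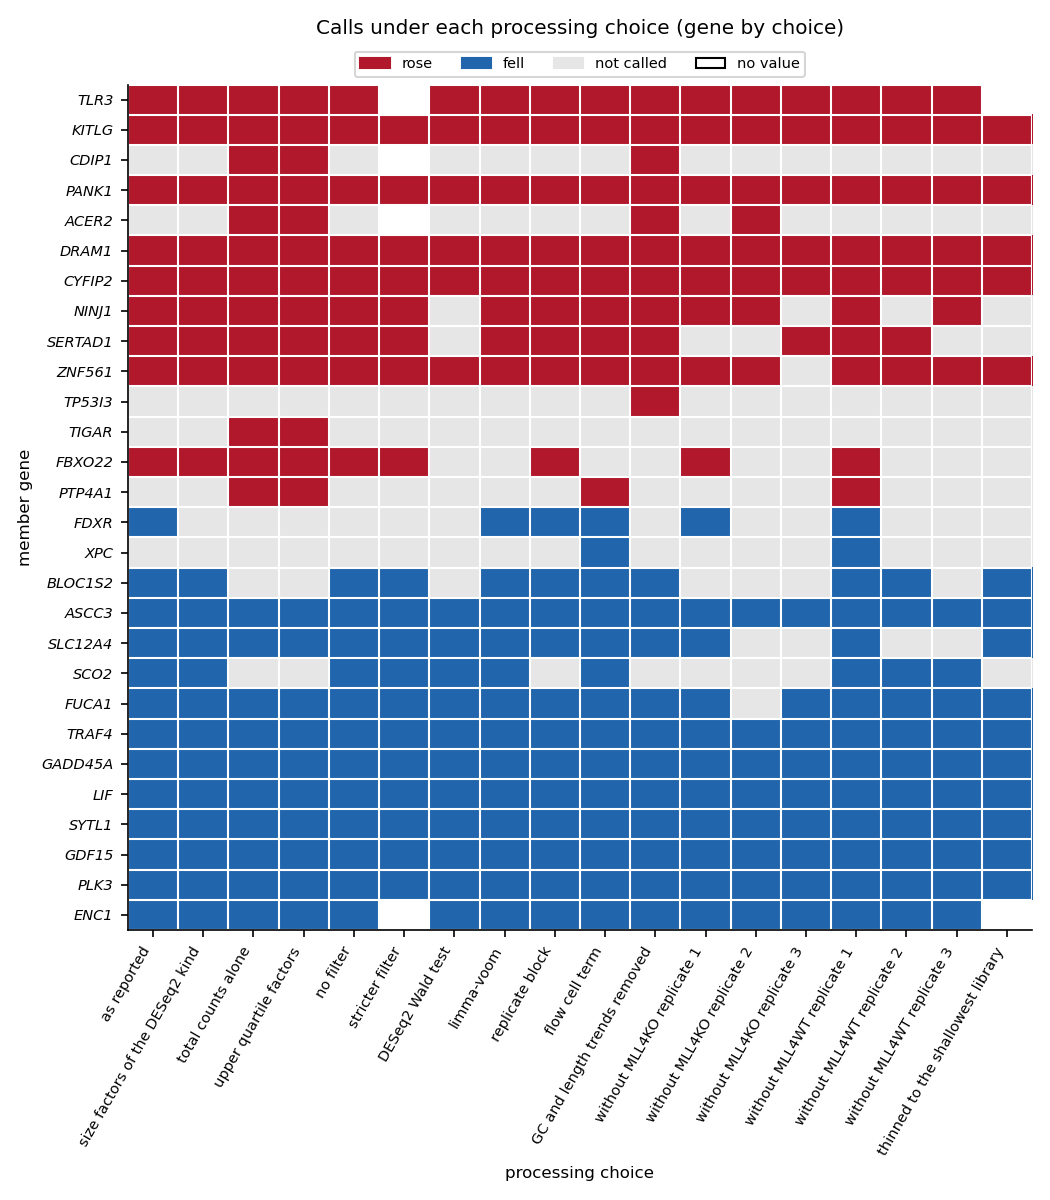
Call of each member (vertical axis) that was called under at least 1 processing choice (horizontal axis), in red for a rise, blue for a fall, grey for no call and white for no value. Long rows of 1 colour mark the 13 members called wherever they had a value, TLR3 and ENC1 among them. Broken rows such as FDXR, FBXO22 and SCO2 mark calls that depend on the choice.

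The rest of the p53 pathway also split in direction, though its feedback loop list did not. In the feedback loop list of 10 genes, 5 rose and 0 fell, where 19.8% of all tested genes rose and 21.6% fell. CCNG1, the cyclin G1 gene, had 114, 122 and 119 CPM in MLL4KO libraries and 92.4, 83.3 and 87.5 CPM in MLL4WT libraries (log2 0.44 ± 0.05, edgeR adjusted p = 4.90e-05). SESN1, a stress-induced sestrin gene, had 11.4, 12.5 and 11.7 CPM in MLL4KO libraries and 7.88, 5.69 and 6.15 CPM in MLL4WT libraries (log2 0.90 ± 0.13, edgeR adjusted p = 0.000181). MDM2 was at 143 ± 6.11 CPM in MLL4KO and 123 ± 5.14 CPM in MLL4WT, and CDKN1A at 23.9 ± 0.834 CPM in MLL4KO and 24.3 ± 0.848 CPM in MLL4WT (edgeR adjusted p = 0.00449 and 0.936).

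Of 11 tested death genes 2 rose and 4 fell, where 19.8% of all tested genes rose and 21.6% fell. The survival gene BCL2L1 had 69.8, 73.9 and 70.5 CPM in MLL4KO libraries and 119, 128 and 112 CPM in MLL4WT libraries, and the pro-death BH3-only gene PMAIP1 33.6, 37.5 and 36.4 CPM in MLL4KO libraries and 52.2, 48.7 and 51.8 CPM in MLL4WT libraries. Both fell (edgeR adjusted p = 1.49e-06 and 7.67e-05), while the apoptosome gene APAF1 and the TRAIL receptor gene TNFRSF10B rose by log2 0.42 and 0.18 (edgeR adjusted p = 0.00605 and 0.0146). Of 8 tested upstream kinases, coactivators and p53 relatives, the coactivator genes EP300 and CREBBP rose by log2 0.18 and 0.14 and the damage kinase gene ATR fell by 0.29 on the log2 scale (edgeR adjusted p = 0.0133, 0.0363 and 0.00387). Over the 3 lists 14 of 29 tested genes were called (48.3%), beside the 41.4% of all tested genes. Rises made up 31.0% of the 29 and falls 17.2%, against 19.8% and 21.6% of all tested genes.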

How the data were processed

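Poly(A)-selected RNA of 3 MLL4KO and 3 MLL4WT libraries was sequenced. Genotype and replicate number came from the sample titles, and columns were matched to samples by library name. The authors deposited 1 table of expected counts per gene, which are whole numbers and not normalised, as its values and name show. The submitters' processing notes list Salmon 1.8.0, DESeq2 1.44.0 and hg38; the sources used here do not say what each was used for. The labels do not say that the library kit keeps strand. Symbols came from a gene name table and, for SCO2, from GENCODE release 29 on GRCh38, which also gave coordinates and exons; RefSeq gave the promoter sequences.

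Genes were kept with filterByExpr, libraries scaled by TMM and genotypes compared by the quasi-likelihood test of edgeR 4.0.16 (R 4.3.3, robust, no covariate, 4 residual degrees of freedom), adjusted by Benjamini-Hochberg over 14543 genes holding 99.9% of counts. The biological coefficient of variation was 5.62%. Standard errors of log2 fold changes were derived from the F statistic. Differences within a code used log2 CPM with a prior count of 0.5. No pair of libraries of a genotype agreed within sampling noise (chi-square per degree of freedom 1.85 to 7.98, highest for pairs with MLL4WT replicate 1).

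The members and gene lists were chosen with earlier results of these data known. Genes given full values are, per role group, at most 3 called members that rose and 3 that fell by smallest adjusted p and the uncalled member with the most counts; other members were named after their values were seen. In each list of other pathway genes they are at most 2 called that rose and 2 that fell, with CDKN1A and MDM2. No set test was run. The 17 alternatives were DESeq2-type size factors, total counts, upper quartile factors, no filter, a stricter filter (5 CPM in 3 libraries), the DESeq2 1.42.0 Wald test, limma-voom (limma 3.58.1), a replicate block, a flow cell term, lowess removal of GC and length trends (span 0.3), leaving out each library, and thinning to the shallowest library. Results that rest on some genes are not reported here.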

Additional observations from a re-analysis of the deposited data

How the results depend on the processing

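The called total of 22 members ranged from 15 to 24 over the 17 alternatives, and calls over all tested genes moved too. As reported, 2885 rose and 3136 fell of 14543 genes. Without MLL4WT replicate 1, 3521 rose and 3822 fell of 14843, and after thinning 2176 rose and 2530 fell of 13258. Without MLL4KO replicate 2, 2163 rose and 2316 fell of 14777, and without MLL4KO replicate 3, 2252 rose and 2417 fell of 14872. Thinned to the shallowest library, 5 members rose, 10 fell and the median log2 fold change of the tested members was -0.046. Leaving out 1 library at a time gave 15 to 24 called members, of which 6 to 10 rose and 8 to 14 fell, with a median of -0.086 to -0.037; the lowest count of falls was that without MLL4KO replicate 2. The median was 0.0059 with total counts alone, -0.0023 with upper quartile factors and -0.043 with no filter. The other pathway genes had 10 to 16 calls, against 14 as reported.

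The replicate numbers showed no sign of pairing the libraries, though 3 libraries per group cannot exclude it. Same-numbered libraries had deviations from their group means that correlated at 0.03, 0.04 and -0.02, beside -0.10 to 0.06 for differently numbered libraries. With the number as a replicate block 9 members rose and 12 fell, 21 in all, and the SCO2 call was lost (adjusted p = 0.0637). TLR3 and ENC1 gave no value under the stricter filter or at the shallowest depth, and depth limits what can be seen of genes at their level.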
